A study of Danio rerio with 6 samples.

Results

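Matricellular and adhesion glycoproteins are secreted proteins that sit among the collagen fibrils and tell cells how to attach, spread and organise the matrix around them. The 10 genes described here were chosen by symbol, with earlier results of these data known: the periostins postna and postnb, their relative tgfbi, the collagen binder sparc, the tenascins tnc and tnw, the thrombospondins thbs4a and thbs4b, and the fibronectins fn1a and fn1b. All 10 were found among the 23876 genes of the deposited table. RNA sequencing was done on whole zebrafish larvae at 7 days post fertilization (dpf), kept at 28.5 °C. Mutant larvae were homozygous for a znf469 mutation (znf469-KO in the sample labels, znf469-4del in the series design) and were set against wild type larvae (labelled wt). Each group had 3 libraries, each made from a pool of 50 larvae. The mutants carried no other allele and neither group was given a treatment, as far as the labels state. They do not say whether the pools came from separate clutches, so the spread between these pools may be technical. The labels give 1 mutant allele.

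Periostin and TGFBI are built from fasciclin domains and bind collagen. In mice periostin takes part in collagen fibril assembly and cross-linking, and in humans mutations of TGFBI cause corneal dystrophies. SPARC, or osteonectin, binds collagens and takes part in their deposition in mice. Tenascins are many-armed proteins that loosen the grip of cells on fibronectin, thrombospondin 4 lies where muscle meets tendon, and fibronectin is assembled by cells through integrins into fibrils on which other matrix is laid down. ZNF469 is the gene of brittle cornea syndrome in humans, and the series title concerns its part in extracellular matrix synthesis.

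The values are normalized read counts, that is, reads per transcript, divided within each library by 1 factor of the authors. Summed over all transcripts, the reads per library came to between 17023269 and 19156581, where a read shared by transcripts of a gene can count more than once. With 1 transcript per gene they came to between 8111192 and 9683579. The 2 groups were compared with limma on log2(value + 1) over 22803 genes, and a gene was called at a p below 0.05 after Benjamini-Hochberg (BH) adjustment. Fold changes are log2 values of mutant over wild type on that scale, levels carry the SD over 3 libraries and log2 fold changes their SE. Limma moderates the variance of each gene toward a trend over all genes. Its SE, interval and p thus rest only in part on the gene's own pools, and can be narrower or wider than these pools alone would give. In this fit 497 genes were lower and 526 higher. Mutant replicate 2 and wild type replicate 1 lay far from the rest of their groups on the second principal component, which held 27.2% of the variance, with scores of 53.0 and -60.4. On the first component (47.25% of the variance) mutant pools scored -48.4, -12.8 and -54.5, and wild type pools 3.14, 49.2 and 63.5. The same libraries thus lay nearest the other group there. They were picked from these data, so fits without both are no independent check of a call. The znf469 transcript had normalized read counts of 233, 186 and 209 in mutant pools and 296, 198 and 206 in wild type pools. It did not pass (log2 fold change -0.13, SE 0.20, limma, BH-adjusted p = 0.786). How the mutation acts on its own transcript is not stated in the labels, so this level is no check of them.

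Of the 10 genes, 5 were lower in the mutant and none (0) was higher, with 5 that did not pass. Over all genes tested, 2.18% were lower and 2.31% higher. The 5 were postnb, sparc, tgfbi, tnw and tnc. The median log2 fold change was -0.75 over the 10 genes and 0.00 over all genes tested. At an unadjusted p under 0.05 in limma, 6 of the 10 were lower and 0 higher, against 9.17% and 9.03% of all genes tested. EdgeR called 5 lower and 0 higher, against 2.21% and 2.46% of all genes. DESeq2 called 6 lower and 0 higher, where it called 3.08% of all genes lower and 3.35% higher. In 6 of the 10 genes each mutant library lay below each wild type library, which was so for 11.8% of genes tested. In 1, fn1b, each mutant library lay above each wild type library, as in 11.6% of genes tested. In whole larvae, fewer cells of a type and less RNA per cell cannot be told apart.

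**Figure D1:**
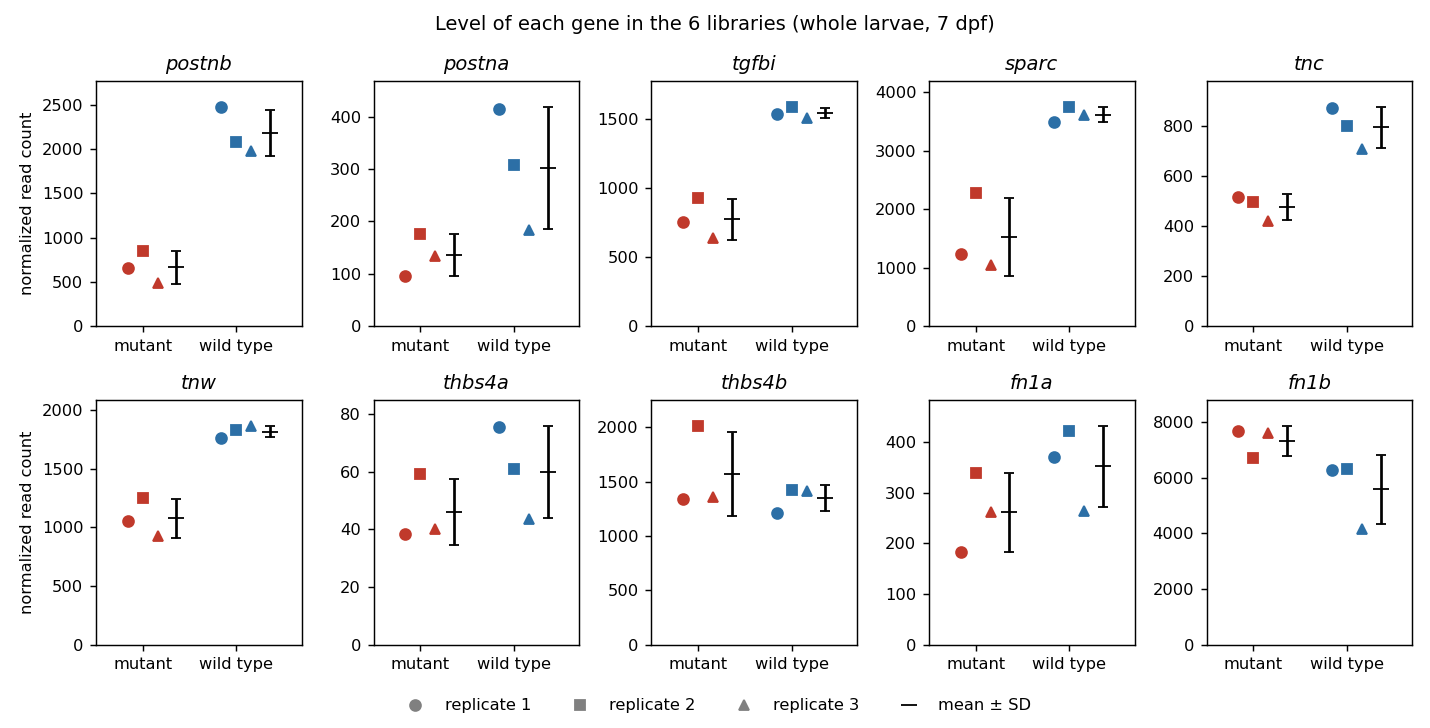
Normalized read count of each gene (vertical axes, linear, from 0) in the 3 mutant libraries (red, left) and the 3 wild type libraries (blue, right), with the replicate shown by the marker and the mean ± SD in black. In postnb, postna, tgfbi, sparc, tnc and tnw the red points lie below the blue ones, in fn1b above them, and in thbs4a, thbs4b and fn1a the groups overlap.

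The periostin gene postnb had the largest fall of the 10. Its normalized read count was 661, 852 and 482 in mutant pools, against 2475, 2083 and 1980 in wild type pools. The groups were far apart, with the highest mutant pool below the lowest wild type pool. The mean was 665 ± 185 in the mutant and 2179 ± 261 in wild type (SD, n = 3 each), so the mutant level was 30.5% of the wild type level. This was a log2 fold change of -1.74 (SE 0.21, limma, BH-adjusted p = 0.00179). The call held in each of 18 alternative settings, with adjusted p from 8.06e-13 to 0.0168. The table lists 7 transcripts of postnb, which share most of their reads, and in a fit of each of 44191 transcripts by itself all 7 were lower, with log2 fold changes from -1.75 to -1.71.

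The other periostin gene, postna, was read far less deeply, with 1336 reads over the 6 libraries against 8711 for postnb. It had normalized read counts of 96.5, 177 and 134 in mutant pools, against 415, 308 and 183 in wild type pools. The groups did not overlap, but mutant replicate 2 and wild type replicate 3 nearly met. Its log2 fold change of -1.11 (SE 0.31) did not pass in limma (BH-adjusted p = 0.0781), with a 95% interval of -1.81 to -0.42. Without wild type replicate 3, the lowest of its group, it passed (limma, adjusted p = 0.0414), and it also passed with DESeq2 (adjusted p = 0.00577) and with mutant replicate 2 and wild type replicate 1 both left out (limma, adjusted p = 0.0179). Over the 18 settings the adjusted p was 0.00577 to 0.283.

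Tgfbi, the relative of periostin that human corneas contain in abundance, had normalized read counts of 754, 931 and 635 in mutant pools, against 1540, 1586 and 1510 in wild type pools. Wild type pools were nearly level with each other and mutant pools were all well below them. The mutant mean of 773 ± 149 was 50.0% of the wild type mean of 1545 ± 38.1 (SD, n = 3 each). On the log2 scale it fell by 1.02 (SE 0.17, limma, BH-adjusted p = 0.00909). It lost its call when mutant replicate 3 (adjusted p = 0.0539) or wild type replicate 2 (0.0704) was left out, and over the 18 settings the adjusted p was 3.34e-06 to 0.0704.

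Sparc, the collagen-binding glycoprotein also known as osteonectin, had normalized read counts of 1238, 2277 and 1036 in mutant pools, against 3487, 3740 and 3612 in wild type pools. Mutant replicate 2 stood well above the other mutant pools and yet below each wild type pool. The spread was unequal, with a coefficient of variation of 43.9% in the mutant and 3.50% in wild type. The log2 fold change was -1.34 (SE 0.26, limma, BH-adjusted p = 0.0176), and the mutant mean was 42.0% of the wild type mean. Without mutant replicate 2 the log2 fold change was -1.67 (limma, adjusted p = 0.000913). The call ended without mutant replicate 1 (adjusted p = 0.0789), mutant replicate 3 (0.0763), wild type replicate 2 (0.0969) or wild type replicate 3 (0.0607). Over the 18 settings the adjusted p was 1.87e-05 to 0.0969.

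The tenascins fell by similar and smaller amounts. Tnc, tenascin C, which marks tendon, perichondrium and other dense tissue under load in mammals, had normalized read counts of 515, 495 and 419 in mutant pools, against 872, 802 and 711 in wild type pools. The highest mutant pool lay below the lowest wild type pool. Tnc fell by 0.74 on the log2 scale (SE 0.16, limma, BH-adjusted p = 0.0272), and the mutant mean was 59.9% of the wild type mean. Tnw, tenascin W, the counterpart of mammalian tenascin N, had 1051, 1249 and 924 in mutant pools, against 1764, 1825 and 1860 in wild type pools. Here too the groups were well apart and the wild type pools were nearly level. The log2 fold change of tnw was -0.77 (SE 0.16, limma, BH-adjusted p = 0.0218), with a mutant mean at 59.2% of the wild type mean.

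The calls of both tenascins depended on several libraries. With 1 library left out the log2 fold change was -0.82 to -0.65 for tnc and -0.88 to -0.66 for tnw. The tnc call ended without mutant replicate 1 (limma, BH-adjusted p = 0.0699), mutant replicate 3 (0.143), wild type replicate 2 (0.149) or wild type replicate 3 (0.0558). That of tnw ended without the same libraries in turn, with adjusted p of 0.0890, 0.124, 0.131 and 0.0801. In those 4 fits calls were fewer over all genes too, with 207, 171, 102 and 192 genes lower, against 497 with all 6 libraries. Over the 18 settings the adjusted p was 0.00326 to 0.149 for tnc and 0.000347 to 0.131 for tnw. The direction of both held in each of those settings. By transcript, all 6 listed for tnc and all 4 listed for tnw were lower. The transcripts of each gene share most of their reads, so these are not separate results. The tnc transcript with the fewest reads had 81.8%, 78.4% and 81.6% of the value of the one with the most in mutant pools, against 87.1%, 85.0% and 77.9% in wild type pools, and these shares overlapped.

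The thrombospondin 4 genes did not pass. Thbs4b, which in zebrafish is needed to hold muscle to tendon, had normalized read counts of 1341, 2015 and 1357 in mutant pools, against 1211, 1428 and 1413 in wild type pools. Mutant replicate 2 was the highest of the 6 and the other mutant pools lay within the wild type range. Its log2 fold change was 0.20 (SE 0.19, limma, BH-adjusted p = 0.640), with a 95% interval of -0.22 to 0.61. Without mutant replicate 2 it was 0.0023, and without that library and wild type replicate 1 it was -0.074. Thbs4a was read little, with 321 reads over the 6 libraries. It had 38.4, 59.3 and 40.2 in mutant pools, against 75.5, 60.8 and 43.5 in wild type pools, and the groups overlapped. Its log2 fold change of -0.37 (SE 0.31, limma, BH-adjusted p = 0.581) had a 95% interval of -1.05 to 0.31. That interval takes in the fold change of tnc as well as no change.

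The fibronectin genes had log2 fold changes of opposite sign and neither passed. Fn1a, which in zebrafish embryos guides the heart precursors to the midline, had normalized read counts of 184, 338 and 261 in mutant pools, against 371, 421 and 264 in wild type pools. Mutant replicate 2 lay within the wild type range. For fn1a the log2 fold change was -0.45 (SE 0.25, 95% interval -1.01 to 0.11), and -0.66 to -0.22 with 1 library left out, the smallest without mutant replicate 1. Fn1b, which in zebrafish takes part in the boundaries between somites, had 7680, 6695 and 7593 in mutant pools, against 6277, 6312 and 4159 in wild type pools. Each mutant pool was above each wild type pool, and wild type replicate 3 was the lowest by far. The log2 fold change of fn1b was 0.41 (SE 0.20, 95% interval -0.04 to 0.87, limma, BH-adjusted p = 0.320). Leaving out wild type replicate 3 brought it to 0.22 (limma, adjusted p = 0.683). Without both libraries that stood apart it was 0.58 and passed (limma, adjusted p = 0.0492), and over the 18 settings the adjusted p was 0.0492 to 0.683.

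**Figure D2:**
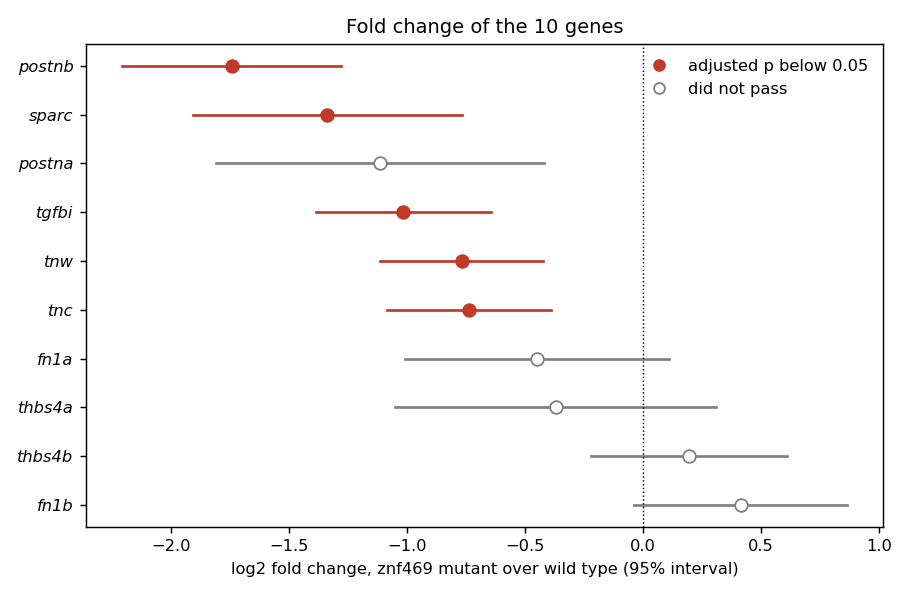
Log2 fold change of mutant over wild type for each gene (horizontal axis, points) with its 95% interval (lines), in order of size, from limma on all 6 libraries. Filled red points passed at an adjusted p below 0.05. They run from -1.74 for postnb to -0.74 for tnc, and the intervals of fn1a, thbs4a, thbs4b and fn1b take in 0.

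The same libraries tended to be high or low across the 10 genes. Mutant replicate 2 was the highest mutant pool in 8 of them and mutant replicate 3 in 0. Wild type replicate 3 was the lowest wild type pool in 7 and wild type replicate 2 in 0. Such ranks were not counted over all genes, so nothing particular to the 10 genes can be read from them. Without both libraries that stood apart, 6 of the 10 were lower and 1 higher (postna and fn1b were added), but in that fit 10.8% of all genes tested were lower and 11.2% higher. With 1 library left out, the number that were lower was 5 without mutant replicate 2 or wild type replicate 1, 3 without wild type replicate 3, 2 without mutant replicate 1 and 1 without mutant replicate 3 or wild type replicate 2. The share of all genes tested that was lower was 0.908%, 3.38% and 0.75% with mutant replicates 1, 2 and 3 left out in turn, and 2.33%, 0.447% and 0.842% with wild type replicates 1, 2 and 3 left out in turn. The 4 fits with fewer than 5 of the 10 called were those with the smallest shares over all genes. Postnb was called in each of these fits.

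**Figure D3:**
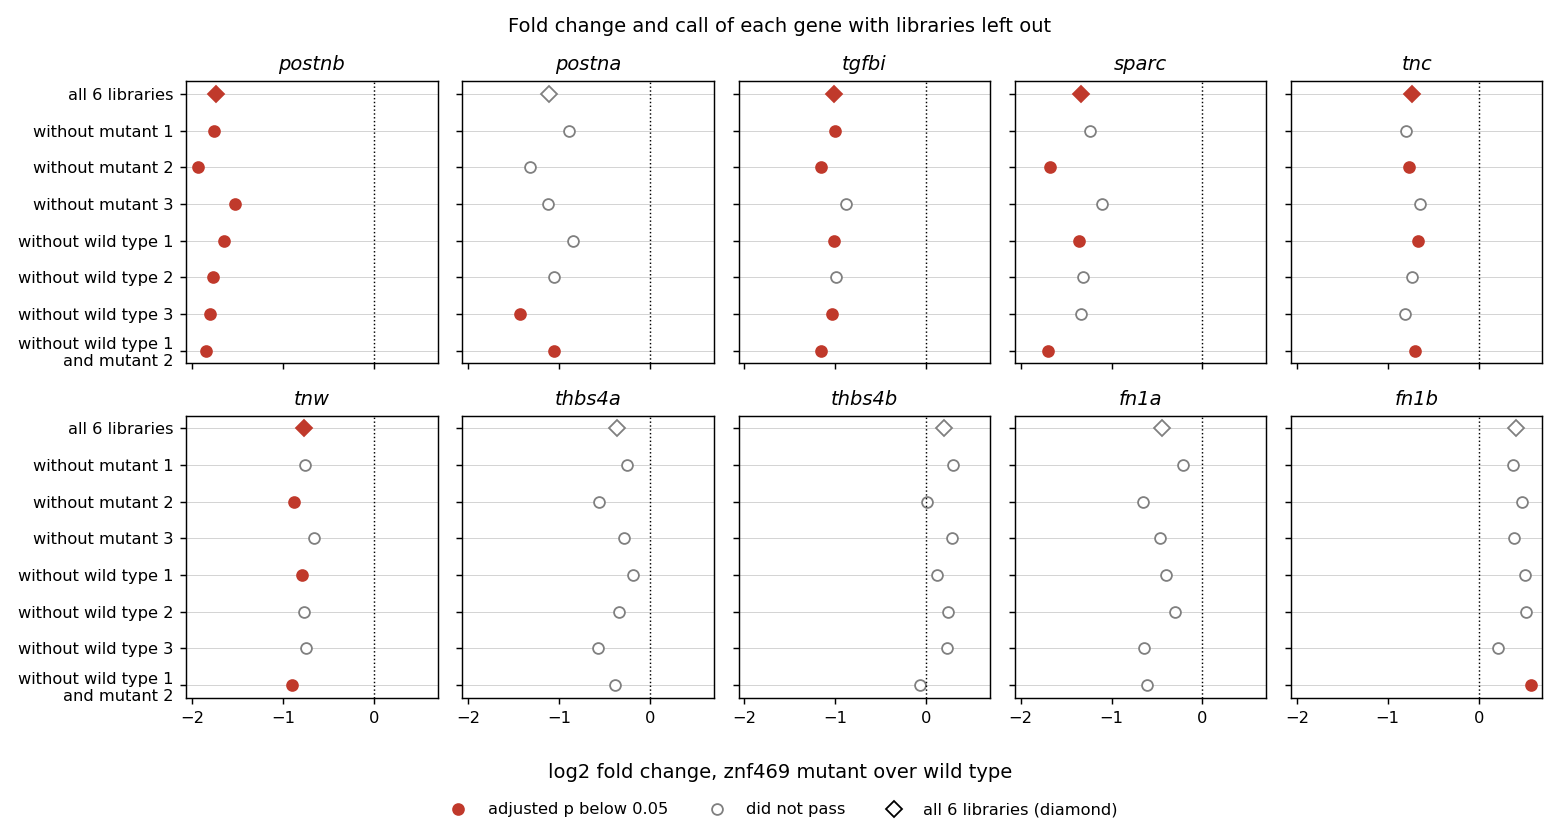
Log2 fold change of mutant over wild type (horizontal axes, shared scale) for each gene with all 6 libraries (diamonds) and with libraries left out (circles, a setting per line). Filled red marks passed at an adjusted p below 0.05. Those of postnb are filled throughout, those of sparc, tnc and tnw are open in 4 of the 6 fits with 1 library left out, and those of tgfbi in 2.

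Gene pairs of the same kind were set against each other by their ratio within each library, which removes the library's scaling. There were 4 pairs, and with 3 libraries against 3 the two-sided exact permutation test used cannot give a p below 0.1, so it could make no call. The log2 ratio of fn1b over fn1a was 4.85 ± 0.54 in the mutant and 3.98 ± 0.09 in wild type (SD, n = 3 each). Each mutant pool was above each wild type pool, a difference of 0.86 (exact permutation p = 0.1, Benjamini-Hochberg adjusted p = 0.2 over the 4 pairs). The log2 ratio of thbs4b over thbs4a was 5.07 ± 0.02 in the mutant and 4.50 ± 0.50 in wild type, again with no overlap (difference 0.56, exact permutation p = 0.1, adjusted p = 0.2). Here wild type replicate 3 (4.99) nearly met mutant replicate 3 (5.04), and the difference was 0.31 without wild type replicate 1. The log2 ratio of postnb over postna was 2.29 ± 0.46 in the mutant and 2.92 ± 0.45 in wild type, and the groups overlapped (difference -0.63, exact permutation p = 0.3, adjusted p = 0.4). That of tnc over tnw was -1.17 ± 0.16 in the mutant and -1.20 ± 0.19 in wild type (difference 0.03, exact permutation p = 0.8, adjusted p = 0.8). The difference between the tenascins was smaller than the SD within either group. Transcript lengths were not used here, so these ratios compare groups and say nothing of which copy is the more abundant.

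**Figure D4:**
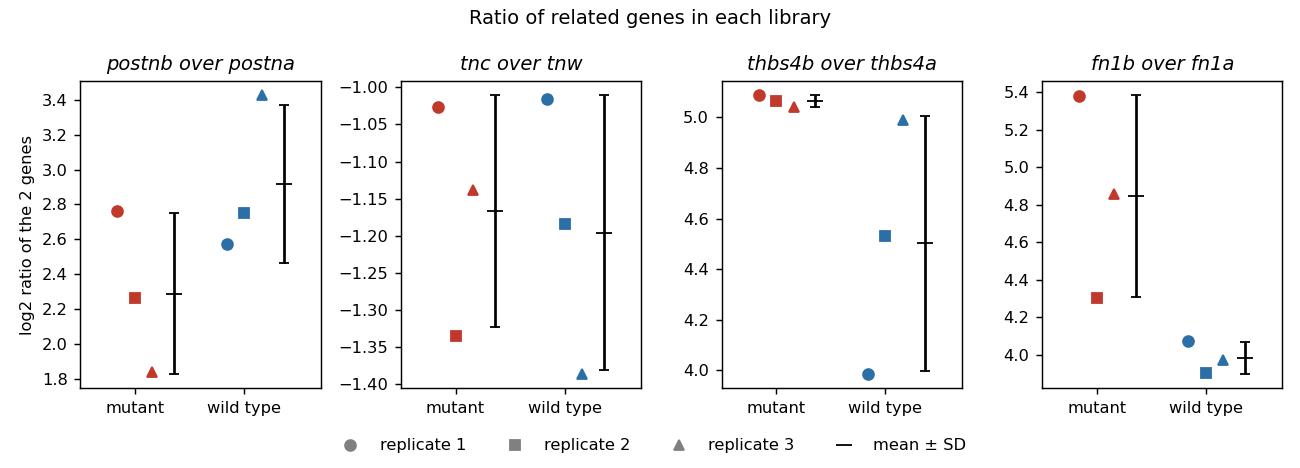
Log2 ratio of a pair of related genes in each library (vertical axes, each with its own range that does not start at 0), with mutant libraries in red on the left, wild type libraries in blue on the right and the mean ± SD in black. The mutant points lie above the wild type points for fn1b over fn1a and thbs4b over thbs4a, and overlap them for the other pairs.

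Relatives of the 10 genes were mostly not called, which was so for all genes tested too, with 2.18% lower and 2.31% higher. At an unadjusted p under 0.05 in limma the shares over all genes were 9.17% and 9.03%. These shares over all genes are to be set beside each list below. Of 25 other matricellular genes tested, which take in further thrombospondins, SPARC relatives, osteopontin and the CCN family, 1 was lower, 0 were higher and 24 did not pass, with a median log2 fold change of -0.11. At an unadjusted p under 0.05, 3 were lower and 2 higher in limma. DESeq2 called 1 higher, and edgeR 0. With mutant replicate 2 and wild type replicate 1 both left out, 6 were lower and 2 higher, in a fit with 10.8% and 11.2% of all genes called. The SPARC relative sparcl1, named after its values were seen, was at -0.64 (limma, BH-adjusted p = 0.128) and passed in that fit (adjusted p = 0.00383) and without mutant replicate 2 alone (0.0316). The gene that fell was fstl1b, a follistatin-like glycoprotein of the SPARC family, with normalized read counts of 319, 421 and 283 in mutant pools, against 767, 681 and 662 in wild type pools. Its log2 fold change was -1.06 (SE 0.18, limma, BH-adjusted p = 0.0104), and the call ended without mutant replicate 3 (adjusted p = 0.0600) or wild type replicate 2 (0.0672), with a range of 1.62e-05 to 0.0672 over the settings.

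Among 43 other adhesive glycoproteins tested, 5 were lower, against 2.18% of all genes, 0 were higher and 38 did not pass. The median log2 fold change was -0.34. At an unadjusted p under 0.05, 12 were lower and 1 higher in limma, against 9.17% and 9.03% of all genes. In 12 of the 43 each mutant pool lay below each wild type pool and in 1 above, against 11.8% and 11.6% of all genes. Neither edgeR nor DESeq2 called any higher (0 each). The matrilin matn4 had normalized read counts of 404, 631 and 408 in mutant pools, against 1837, 1829 and 1485 in wild type pools (log2 fold change -1.86, SE 0.20, limma, BH-adjusted p = 0.000974). The basement membrane protein frem1b was at -1.26 and the secreted integrin ligand egfl6 at -2.02. The fibulin fbln2, which binds fibronectin, was at -1.12 and the microfibril protein mfap2, named after its value was seen, at -1.34. The calls of frem1b, egfl6, fbln2 and mfap2 ended without wild type replicate 2 (limma, BH-adjusted p = 0.0704, 0.0731, 0.139 and 0.154). Those of egfl6, fbln2 and mfap2 ended also without mutant replicate 1 (0.0591, 0.0882 and 0.102), those of fbln2 and mfap2 without mutant replicate 3 (0.103 and 0.120), and those of egfl6 and mfap2 without wild type replicate 3 (0.0519 and 0.0858). The matn4 call held in each setting. With mutant replicate 2 and wild type replicate 1 both left out, 11 of these glycoproteins were lower and 2 higher (10.8% and 11.2% of all genes). The number that were lower was 7 with just the first of these left out (3.38% of all genes) and 1 without wild type replicate 2 (0.447%).

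Receptors for these proteins, chiefly integrin subunits but also syndecans and others, had 1 lower, 0 higher and 32 that did not pass of 33 tested. At an unadjusted p under 0.05, 4 were lower and 1 higher in limma, and edgeR and DESeq2 called 0 higher. The gene that fell was itgb1b.2, a beta 1 integrin copy, with normalized read counts of 89.0, 154 and 78.3 in mutant pools, against 364, 267 and 220 in wild type pools. Its log2 fold change was -1.43 (SE 0.28, limma, BH-adjusted p = 0.0204). Reads of this copy may be shared with its near neighbours itgb1b and itgb1b.1. The call ended without mutant replicate 1 (adjusted p = 0.0829), mutant replicate 3 (0.0927) or wild type replicate 2 (0.0972), with a range of 0.000109 to 0.0972 over the settings. With both libraries that stood apart left out, 3 of the 33 receptors were lower and 2 higher, against 10.8% and 11.2% of all genes. DESeq2 called 2 lower.

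Genes of the TGF-beta pathway, which induces periostin, TGFBI, tenascin C and fibronectin in mammalian cells, had no call in limma: 0 of 19 were lower and 0 higher. At an unadjusted p under 0.05, 1 was lower and 3 higher, and edgeR and DESeq2 called 0 in either direction. Their median log2 fold change was 0.16. The smallest p was that of tgfbr2a, a type II receptor, with normalized read counts of 74.9, 66.8 and 115 in mutant pools, against 37.8, 36.3 and 53.4 in wild type pools (log2 fold change 0.98, SE 0.30, limma, BH-adjusted p = 0.0989). Without both libraries that stood apart it passed (adjusted p = 0.0303, with a range of 0.0303 to 0.370 over the settings), and 2 of the 19 genes were lower and 7 higher, in a fit where 10.8% of all genes were lower and 11.2% higher.

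The fibrillar collagens, to which several of the 10 proteins bind, had a larger fall at the median, though not in each gene. Of 16 tested, 11 were lower and 0 higher (14 lower and 0 higher at an unadjusted p under 0.05; 0 higher also with edgeR and DESeq2), with a median log2 fold change of -2.41 against -0.75 for the 10 genes. By the smallest p they were col5a3b at -3.42, col2a1b at -2.60, col11a2 at -3.19 and col11a1a at -3.04. Among those called, col5a1 was at -1.45 and col5a2a at -0.77. The 5 that did not pass were col5a2b (-2.22), col24a1 (-1.31), col27a1a (-1.29), col5a3a (-0.63) and col27a1b (-0.57). The difference between the fibrillar collagens and the 10 genes was not tested. Of 117 genes of matrix, adhesion, receptor and collagen lists, those most like each called gene by Pearson correlation of log2(value + 1) over the 6 libraries were as follows, a description that the group difference dominates. For postnb they were col5a1 (r = 0.997), fstl1b (r = 0.996) and col1a2 (r = 0.993), and for tgfbi col1a2 (r = 0.996), col11a1a (r = 0.994) and mfap2 (r = 0.993). For sparc they were mfap2 (r = 0.996), egfl6 (r = 0.996) and sparcl1 (r = 0.981). For tnw they were col1a2 (r = 0.993), col11a1a (r = 0.992) and mfap2 (r = 0.992), and for tnc col11a1b (r = 0.986), col5a1 (r = 0.974) and col2a1b (r = 0.963).

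**Figure D5:**
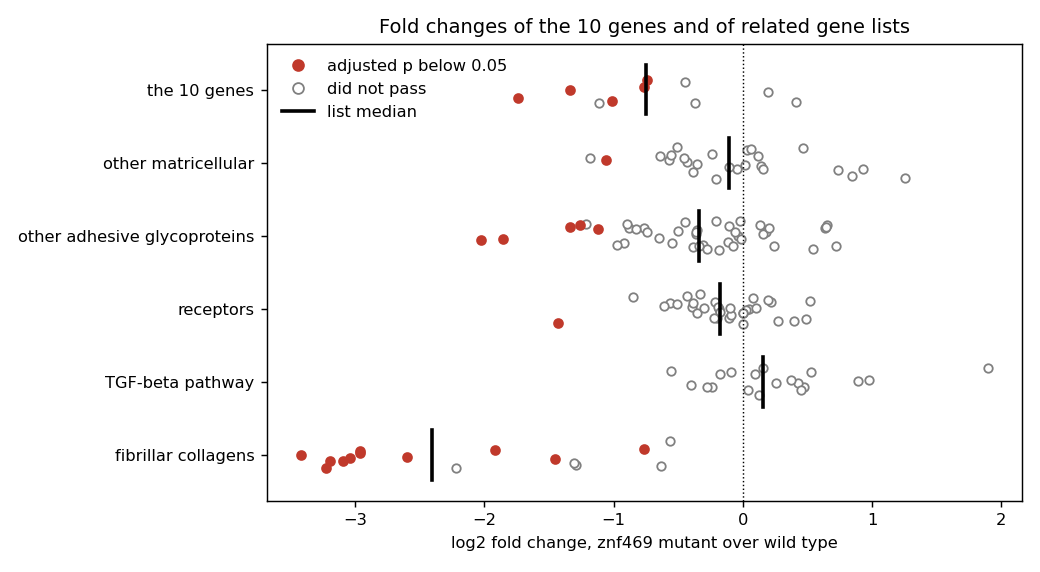
Log2 fold change of mutant over wild type (horizontal axis) of each tested gene of 6 lists (rows, with vertical jitter), with the list median as a black bar and filled red points for genes that passed at an adjusted p below 0.05. The medians are -0.75 for the 10 genes and -2.41 for the fibrillar collagens, and lie between -0.34 and 0.16 for the other lists.

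Markers of cell types that could make these proteins moved with them in part. No marker in these lists that the table holds was at 0 in all 6 libraries. Over all genes tested, 2.18% were lower and 2.31% higher. At an unadjusted p under 0.05 in limma the shares were 9.17% and 9.03%, and with DESeq2 3.08% and 3.35%. Of 16 cartilage markers 9 were lower and 0 higher (12 lower and 1 higher at an unadjusted p under 0.05, 11 and 0 with DESeq2). Their summed normalized read count was 2421 to 4507 in mutant pools and 9442 to 12899 in wild type pools. The largest parts of the wild type sum were col9a2, col9a3 and col9a1b, with wild type means of 2282, 1587 and 1577. Their mutant means were 281, 121 and 162, so the sum says less of the other cartilage markers. The leading ones were the collagens col9a2 and col9a3, and the collagens col9a1a and col9a1b were lower too. Of the 7 that did not pass, acanb was at 0.56, acana at 0.04, chad at -0.08 and sox9a at -0.33. The rest of the 7 were matn1 (-1.21), ucmaa (-1.77) and lect1 (-0.97). Of 15 fibroblast markers 3 were lower and 0 higher (6 and 0 both at an unadjusted p under 0.05 and with DESeq2). Their sums were 1955 to 2861 in mutant pools and 3465 to 4318 in wild type pools, and dcn (-1.26) and lum (-1.50) led. Their calls ended without wild type replicate 2 (limma, BH-adjusted p = 0.0573 and 0.0969), and that of lum also without mutant replicate 1 (0.0664), mutant replicate 3 (0.0554) or wild type replicate 3 (0.0566). Of 7 tendon markers 1 was lower, tnmd at -1.85, with sums of 1428 to 2016 in mutant pools and 1740 to 3572 in wild type pools. Most of that sum was egr1, at 1341, 1195 and 1764 in mutant pools and 3056, 1317 and 1421 in wild type pools. The sum thus says little of the other tendon markers. In 3 of the 7 each mutant pool lay below each wild type pool, and in 0 above, against 11.8% and 11.6% of all genes. Of 12 bone markers 0 were called in limma or edgeR (5 lower and 0 higher at an unadjusted p under 0.05, and 2 lower with DESeq2), with sums of 1298 to 1598 in mutant pools and 1572 to 3110 in wild type pools.

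Markers of some other tissues moved too. Over all genes tested 2.18% were lower and 2.31% higher, and 9.17% and 9.03% at an unadjusted p under 0.05 in limma. DESeq2 called 3.08% of all genes lower and 3.35% higher. Of 10 epidermal markers 3 were lower and 0 higher (5 and 0 both at an unadjusted p under 0.05 and with DESeq2), led by the keratins krtt1c19e (-1.86) and krt5 (-1.59). Their sums were 66333 to 124465 in mutant pools and 153295 to 177340 in wild type pools. The largest part of that sum was krt4, which was at -0.77 and did not pass (limma, BH-adjusted p = 0.212). The krt5 call ended without mutant replicate 1, mutant replicate 3 or wild type replicate 2 (limma, BH-adjusted p = 0.0556, 0.0616 and 0.0692). Of 13 markers of dividing cells 8 were lower and 0 higher (13 and 0 at an unadjusted p under 0.05, 11 and 0 with DESeq2), with cenpe and mki67 in front. Their sums were 604 to 1138 in mutant pools and 2178 to 2488 in wild type pools. Of 16 muscle markers 1 was lower, casq1a at -2.34, and 1 higher, desma at 1.84 (6 and 1 at an unadjusted p under 0.05, 4 and 1 with DESeq2). Their sums were 482170 to 709610 in mutant pools and 728685 to 941712 in wild type pools. The largest parts of that sum were actc1b and myhz1.1, at -0.82 and -0.27, and neither passed (limma, BH-adjusted p = 0.334 and 0.722). Of 12 liver markers 2 were lower, tfa (-1.40) and fabp10a (-0.74), and the sums overlapped, at 39218 to 51134 in mutant pools and 39737 to 47482 in wild type pools. The largest part of the liver sum was apobb.1, which was at 0.55 and did not pass (limma, BH-adjusted p = 0.297). The tfa call was lost without wild type replicate 2 (adjusted p = 0.0731) and that of fabp10a without any library but mutant replicate 2 (adjusted p = 0.0618 to 0.206), and fabp10a was called in 9 of the 18 settings. Of 12 neuron markers 1 was lower, nefmb at -0.77, a call that ended in the same way without any library but wild type replicate 1 (adjusted p = 0.0573 to 0.222) and held in 10 of the 18 settings, with sums of 22445 to 25611 in mutant pools and 22275 to 30126 in wild type pools. At an unadjusted p under 0.05 in limma, 3 liver and 4 neuron markers were lower and 0 higher. Glial and endothelial markers had 0 calls of 12 and 11 in limma, edgeR and DESeq2 (1 and 0 lower at an unadjusted p under 0.05). Their sums were 5649 to 7632 and 895 to 1292 in mutant pools, and 5455 to 8055 and 999 to 1284 in wild type pools. With both libraries that stood apart left out, more markers were called, as over all genes. Then 13 of 16 cartilage, 8 of 15 fibroblast, 1 of 7 tendon, 7 of 12 bone, 9 of 10 epidermal, 13 of 13 dividing-cell, 9 of 16 muscle, 4 of 12 liver, 7 of 12 neuron, 2 of 12 glial and 1 of 11 endothelial markers were lower. Of bone, muscle and endothelial markers 1 each was higher, and 0 of the other lists. The median log2 fold change was -1.53 for dividing-cell, -1.24 for cartilage, -1.03 for bone, -0.76 for epidermal and -0.55 for fibroblast markers. It was -0.42 for muscle, -0.41 for tendon, -0.24 for neuron, -0.20 for endothelial, -0.06 for glial and -0.02 for liver markers. That of the 10 genes, -0.75, lay within this range. The part of these cell types in the levels of the 10 genes was not tested.

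In the authors' deposited table, 6 of the 10 genes were lower and 0 higher at a q-value under 0.05, the 5 called here and postna. Of all genes there, by the same transcript, 4.28% were lower and 4.7% higher. The log2 fold changes in the authors' deposited table were -1.71 for postnb, -1.25 for sparc, -1.16 for postna, -0.76 for tnw and -0.74 for tnc. The authors' deposited table gave a q-value of 0.00231 for postna, 0.216 for fn1b and 0.341 for fn1a.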

How the data were processed

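Polyadenylated RNA of 6 pools of whole larvae was sequenced. The deposited signal values are read counts per RefSeq transcript divided by 1 factor per library: in each of the 6 libraries 100% of positive values were whole multiples of that library's smallest one (tolerance 0.001), and whole reads were recovered from that step. In wild type replicate 3 the step was 0.990, close to 1 and so harder to tell from rounding. GRCz11 is named as the build in the submitters' processing notes, with aligner, counter and strand setting not given in the sources used here. The authors also deposited, per the file headers, their own p-value and q-value for each transcript, from a test that is not named, and a log2 fold change that ran mutant over wild type in 99.8% of transcripts.

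Each gene was represented by its transcript of highest mean over the 6 libraries. Genes that reached a value of 1 in 3 libraries or more were tested with limma 3.58.1 on log2(value + 1), with an intensity trend. The added 1 understates changes of low genes. The call threshold was 0.05 after Benjamini-Hochberg adjustment. EdgeR 4.0.16 (quasi-likelihood) and DESeq2 1.42.0 were run on the recovered counts, in R 4.3.3, and the code was tested on simulated data. Related genes were compared by two-sided exact permutation tests over libraries. Of 307 entries in 17 gene lists, 284 were found by symbol or synonym in a RefSeq table of GRCz12tu, and tnn was dropped because it is tnw. Named were the 10 genes, from each matrix or pathway list the called genes with the 4 smallest p per direction (or the gene of smallest p where none was called), and from each cell type list those with the 2 smallest p. The members and lists were chosen with earlier results of these data known.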

Additional observations from a re-analysis of the deposited data

How the results depend on the processing

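Over 18 alternative settings and 10 genes, 161 of 180 fits kept both the direction and the side of the threshold. Of the 10 genes, 5 had no call to lose, and most settings used all 6 libraries. In 14 fits a call was lost, each time by 1 of the 5 called genes with 1 library left out. In 4 a call was gained, and in 1 the sign changed. That 1 was thbs4b, at -0.074 without both libraries that stood apart (mutant replicate 2 and wild type replicate 1). There znf469 was at 0.13, and with 1 library left out it ranged from -0.24 to 0.048. In that fit 2464 genes were lower and 2551 higher, and of the 10 genes 6 were lower and 1 higher. The log2 ratio of tnc over tnw differed by 0.20 between groups there. With 1 library left out, genes that were lower numbered 102 (without wild type replicate 2) to 771 (without mutant replicate 2) and genes that were higher 142 (without wild type replicate 2) to 814 (without wild type replicate 1). Of the 10 genes, 1 to 5 were lower and 0 higher. The difference in log2 ratio with 1 library left out was -0.87 to -0.37 for postnb over postna, -0.07 to 0.12 for tnc over tnw, 0.31 to 0.81 for thbs4b over thbs4a and 0.60 to 1.13 for fn1b over fn1a. Causes were not tested. Deviations of same-numbered libraries from their group means correlated at 0.143, 0.130 and -0.259, and those of differently numbered libraries at -0.322 to 0.283. With 3 libraries per group these values cannot show whether the numbers pair the samples. With a replicate block 5 of the 10 genes were lower and 0 higher, with 488 genes lower and 492 higher in all. Under the block cyr61l1 passed (adjusted p = 0.0403), nefmb and fabp10a did not (0.0552 and 0.0723), and 2 bone markers were lower. Sums over transcripts also ended the calls of nefmb (0.0648) and fabp10a (0.0546), single transcripts that of nefmb (0.0510), and a pseudocount of 0.5 or no filter that of fabp10a (0.0514 and 0.0515). Such sums can count a shared read more than once. Pseudocounts of 0.5 and 5, no filter, a filter at 10, edgeR with TMM or RLE, total counts, sums over transcripts and single transcripts changed no call among the 10. DESeq2 called postna as well. Depth limits thbs4a most, with 39 to 80 reads per library. The p-values are not counting errors and cover the spread between pools, with variances moderated over all genes in limma.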

Other observations

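Of 101 other matricellular genes, adhesive glycoproteins and receptors tested, 19 had each mutant pool below each wild type pool (18.8%), against 11.8% of all genes tested. The other way, 4 had each mutant pool above each wild type pool (3.96%), against 11.6% of all genes tested. These 4 were picked after their values were seen, and none of them passed in limma with all 6 libraries. The thrombospondin comp, a cartilage and tendon protein of the same subfamily as thbs4a and thbs4b, had normalized read counts of 522, 542 and 419 in mutant pools, against 350, 325 and 398 in wild type pools (log2 fold change 0.46, SE 0.17, limma, BH-adjusted p = 0.166). The CCN gene cyr61l1 had 73.1, 95.9 and 97.9 in mutant pools, against 21.7, 46.1 and 47.5 in wild type pools. Its log2 fold change was 1.26 (SE 0.33, limma, BH-adjusted p = 0.0658). It passed with DESeq2 (adjusted p = 0.0186) and in limma with mutant replicate 2 and wild type replicate 1 both left out (adjusted p = 0.0370), and the range over the settings was 0.0186 to 0.227. The matrilin matn3b had 216, 249 and 198 in mutant pools, against 85.0, 166 and 193 in wild type pools (log2 fold change 0.65, SE 0.29, limma, BH-adjusted p = 0.262). Without wild type replicate 1, the lowest of its group, it was 0.30. The endocytic receptor lrp1ab, whose mammalian counterpart binds thrombospondins, had 1510, 1360 and 1612 in mutant pools, against 1264, 1142 and 1003 in wild type pools (log2 fold change 0.40, limma, BH-adjusted p = 0.195, with a range of 0.0109, without both libraries that stood apart, to 0.506 over the settings).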
